A study of Mus musculus with 6 samples.

Results

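Tuft cells are rare chemosensory cells of the gut epithelium. The set described here holds 10 genes of tuft cell identity and taste signalling, chosen by name: the transcription factor genes Pou2f3 and Gfi1b, the structural markers Dclk1 and Avil, the signalling genes Trpm5, Sucnr1, Tas1r3 and Gng13, the cytokine gene Il25 and the cytokine receptor gene Il17rb. All 10 were found by symbol among the 55450 Ensembl gene rows of the count table. The libraries were polyA RNA-seq of scraped small intestinal epithelium, 3 from control mice and 3 from knockout mice. Both groups carried floxed alleles of the corepressor gene Ncor1 and of a second corepressor gene, and the knockout mice also carried Vil1-Cre-ERT2, a Cre recombinase under the villin promoter that tamoxifen activates in the intestinal epithelium. Per the labels' protocols, mice received tamoxifen at 8 to 9 weeks of age, at 15 mg per 100 g body weight for 5 days, and were placed alone in metabolic cages later. The controls lacked Cre, so the deletion and the Cre transgene cannot be told apart, and the section of the small intestine behind each library is not given in the labels. The libraries are named by group and by the number in their titles (controls 482, 483 and 486, knockouts 423, 476 and 477). These numbers are taken as animal numbers, and p-values measure the spread between these libraries.

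As background, POU2F3 is the factor on which tuft cell formation depends, and tuft cells sense succinate through the receptor SUCNR1 and other luminal compounds through parts of the taste receptor cascade. In that cascade a G protein activates phospholipase C, the inositol trisphosphate receptors release calcium, and the cation channel TRPM5 opens. Tuft cells release IL-25, which acts on IL17RB-bearing innate lymphoid cells, and the IL-13 those cells make raises the number of tuft cells in turn.

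Levels are given as CPM, a gene's reads relative to all reads of its library, scaled with edgeR's TMM factors. Total counts ran from 23476031 to 46835165 per library, and 3 counts correspond to between 0.0586 and 0.173 CPM in 1 library. The floor used for genes without a knockout read is 3 counts over the knockout group, or 0.0399 CPM. Folds against this floor leave out counting error in the control reads and the spread between mice. Ncor1 itself stood at 99.3 to 140 CPM in the controls and at 22.5 to 36.4 CPM in the knockouts. A gene is called where the adjusted p is under 0.05 (edgeR quasi-likelihood test, Benjamini-Hochberg over 15028 genes). Of all genes tested, 18.3% were called lower and 17.3% higher in the knockouts (2752 and 2596 genes). Scaled by total reads only, 4554 were lower and 1133 higher, and the median log2 fold change over all genes went from -0.06 to -0.49. The epithelial markers Vil1 and Cdx2 were high in all 6 libraries (at least 891 and 92.1 CPM).

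The members' promoters were read for shared letters. RefSeq (GRCm38.p6, the assembly of the mm10 files) held windows for 8 of the 10 members, 10 windows in all, because Dclk1 and Gng13 have 2 starts each. Pou2f3 and Il25 had no window and were not searched. The 250 bases before each start were searched on both strands for ATGCAAAT (the octamer bound by POU factors), AAATCA (a GFI core), AGGTCA (a nuclear receptor half-site), TATAAA and GGGCGG. The 4 windows shown are these: Sucnr1, the single member window with the octamer; Avil and Gfi1b, which hold the GFI core; and Tas1r3, the member that was not lower in the knockouts and has none of these letters. Trpm5 and 1 of the Gng13 windows, not shown, also have none of these letters, and these genes were called lower. Capitals mark the matches. In Sucnr1 the octamer, 48 to 41 bases before the start, and the GFI core, 44 to 39 bases before it, share 4 bases. The 4 windows shown lie at chr3:60081619-60081868 (plus strand), chr10:127000459-127000708 (plus strand), chr2:28621983-28622232 (minus strand) and chr4:155863354-155863603 (minus strand), in that order, 5′ to 3′.

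Sucnr1: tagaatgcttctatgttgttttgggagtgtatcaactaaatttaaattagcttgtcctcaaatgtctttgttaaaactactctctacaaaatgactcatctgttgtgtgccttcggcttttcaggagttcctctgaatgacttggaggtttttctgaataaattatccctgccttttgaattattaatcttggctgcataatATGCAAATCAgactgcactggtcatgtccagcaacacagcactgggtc
Avil: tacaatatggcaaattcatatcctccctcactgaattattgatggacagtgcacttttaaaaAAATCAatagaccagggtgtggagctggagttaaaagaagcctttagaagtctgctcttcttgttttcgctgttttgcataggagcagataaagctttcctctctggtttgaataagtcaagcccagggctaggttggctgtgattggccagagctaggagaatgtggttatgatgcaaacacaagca
Gfi1b: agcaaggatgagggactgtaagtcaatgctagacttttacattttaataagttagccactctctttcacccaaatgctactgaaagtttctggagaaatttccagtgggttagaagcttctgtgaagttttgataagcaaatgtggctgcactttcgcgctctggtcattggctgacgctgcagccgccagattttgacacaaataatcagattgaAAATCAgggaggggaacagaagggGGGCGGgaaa
Tas1r3: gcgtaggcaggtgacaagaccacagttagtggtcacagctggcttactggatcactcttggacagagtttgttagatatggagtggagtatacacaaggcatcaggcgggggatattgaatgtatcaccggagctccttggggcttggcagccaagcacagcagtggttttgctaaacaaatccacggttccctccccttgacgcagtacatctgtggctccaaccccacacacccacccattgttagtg

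The octamer was in 1 of the 10 member windows, against 1.60% of 32851 RefSeq windows of the same length. The GFI core was in 4 (Gfi1b, Avil, Sucnr1 and 1 of the Dclk1 windows), against 12.4%. These 4 windows had 38.0% to 46.8% GC and the other member windows 52.4% to 72.0%. The shares over all windows were not matched for GC content. The half-site was in 1 (Dclk1), against 14.0%, the GC box in 3 (Gfi1b, Il17rb and Gng13), against 32.7%, and the TATA box in none, against 12.4%. A match is a description of letters in these windows, and none of these factors' binding was measured here.

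The transcription factor genes were close to absent from the knockout libraries. Pou2f3 (ENSMUSG00000032015, mm10 chromosome 9, 43123939 to 43210369), whose product specifies tuft cells, stood at 10.2, 2.70 and 2.54 CPM in control mice 482, 483 and 486. In knockout mice 423, 476 and 477 it stood at 0.0362, 0 and 0 CPM, a single read in 1 library. The groups did not overlap, and control 482 was 3.88 times the mean of the other control libraries. The level left in the knockouts was 0.247% of the control level (95% exact binomial interval 0.00624% to 1.38%, counting error only; 0.510% without control 482, 0.416% without knockout 476 and no read without knockout 423), and the adjusted p was 0.00050 (edgeR).

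Gfi1b (ENSMUSG00000026815, chromosome 2, 28609450 to 28621982) encodes a zinc finger repressor that also acts in erythroid cells and megakaryocytes. It stood at 2.28, 0.675 and 0.820 CPM in control mice 482, 483 and 486 and at 0.0724, 0 and 0 CPM in knockout mice 423, 476 and 477. Again the groups did not overlap and a knockout signal came from library 423 alone, with 2 counts. The level left was 2.01% (interval 0.241% to 7.37%; adjusted p = 0.0032, edgeR). It was 3.46% without control 482 and 3.38% without knockout 476, and no read was left without knockout 423. Erythroid genes went the other way: 5 of the 6 tested genes of the erythroid and megakaryocyte list rose (among them Alas2, log2 fold change 4.41, and Hbb-bs, 3.99) and none fell. Of all genes, 17.3% were called higher. The list's summed level was 9.40 to 23.1 CPM in the controls and 36.6 to 544 CPM in the knockouts. No erythroid gene was called without control 482 or without control 483, and 1 was without control 486, with limma-voom or with the length and GC trend removed. The part of blood cells in the Gfi1b values was not tested.

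**Figure D1:**
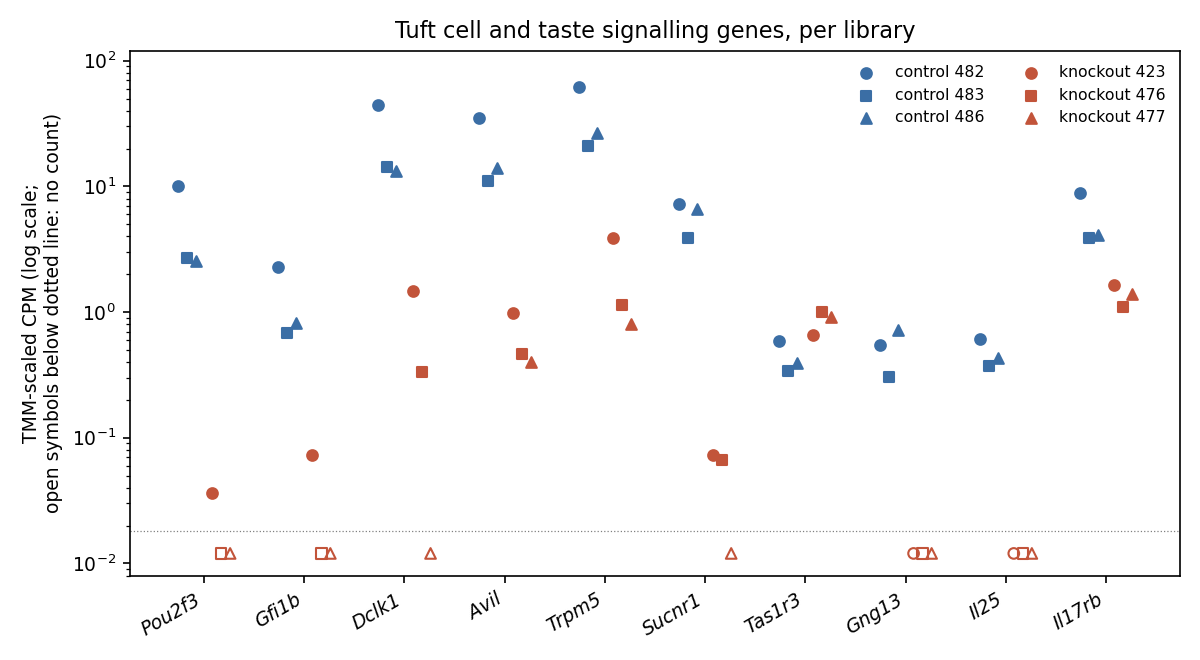
TMM-scaled CPM (log axis) of the 10 genes in each of the 6 libraries; blue symbols are controls, red symbols knockouts, and open symbols under the dotted line are libraries with no count. All but Tas1r3 have their 3 control libraries above their 3 knockout libraries, and Gng13 and Il25 have no knockout count.

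The structural markers fell as well. Dclk1 (ENSMUSG00000027797, chromosome 3, 55242364 to 55539068), a microtubule-binding kinase gene used as a tuft cell marker, stood at 44.6, 14.1 and 13.3 CPM in control mice 482, 483 and 486. It stood at 1.48, 0.332 and 0 CPM in knockout mice 423, 476 and 477, with no read in the last. Between the groups the log2 fold change was -5.21 (SE 0.94, adjusted p = 0.0051, edgeR). Dclk1 is the longest member, with 15296 exon bases. Removing the trend of each library with exon length and GC content gave -4.52 (adjusted p = 0.013). The level left was 2.70% of the control level, 0.858% without knockout 423 and 4.96% without control 482. Enteric neurons also express Dclk1, and of 7 neuron and glia genes none passed the count filter. Their summed level was 0.391 to 0.540 CPM in the controls and 0.724 to 1.21 CPM in the knockouts. Elavl4, a neuron gene, had no read in any library, and S100b, a glia gene, had 1 control read and 29 knockout reads. Their part in the Dclk1 values was not tested.

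Avil (ENSMUSG00000025432, chromosome 10, 127000709 to 127020994) encodes advillin, an actin-bundling relative of villin found in the tuft cell's bristles. It stood at 35.1, 11.0 and 14.0 CPM in control mice 482, 483 and 486 and at 0.977, 0.465 and 0.403 CPM in knockout mice 423, 476 and 477. Reads of Avil were present in all 6 libraries and the groups did not overlap. The log2 fold change was -4.99 (SE 0.55, adjusted p = 0.00028, edgeR), and 3.03% of the control level was left (4.93% without control 482). The villin gene Vil1, expressed across the epithelium, fell by 1.20 on the log2 scale (SE 0.28).

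Reads of the succinate receptor gene were nearly absent from the knockouts. Sucnr1 (ENSMUSG00000027762, chromosome 3, 60081869 to 60087566), whose promoter window held the octamer, stood at 7.25, 3.92 and 6.56 CPM in control mice 482, 483 and 486. Knockouts 423, 476 and 477 had 2, 2 and 0 reads, or 0.0724, 0.0665 and 0 CPM. The log2 fold change was -6.72 (SE 0.58, adjusted p = 8.5e-05, edgeR), the smallest adjusted p of the set, and 0.858% of the control level was left (interval 0.233% to 2.21%). Control 483 had the lowest Sucnr1 level of the controls, and 482 and 486 were close.

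Trpm5 (ENSMUSG00000009246, chromosome 7, 143069153 to 143094642), the calcium-gated cation channel at the end of the cascade, had the highest CPM of the set in each control library. It stood at 62.0, 21.0 and 26.7 CPM in control mice 482, 483 and 486 and at 3.91, 1.13 and 0.805 CPM in knockout mice 423, 476 and 477. Every control library was above every knockout library, and knockout 423 was 4.85 times knockout 477. The log2 fold change was -4.20 (SE 0.63, adjusted p = 0.0017, edgeR) and the level left 5.41%, which became 2.69% without knockout 423 and 8.41% without control 482. Trpm5 shares 220 exon bases with Tssc4 on the other strand, and Tssc4 stood at 8.75 to 11.2 CPM in the controls and 9.77 to 12.7 CPM in the knockouts.

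Gng13 (ENSMUSG00000025739, chromosome 17, 25717171 to 25719406) encodes the G protein gamma subunit of the taste cascade. It had 26, 9 and 37 reads in control mice 482, 483 and 486 (0.548, 0.304 and 0.723 CPM) and none in any knockout library. Against a floor of 3 counts over the knockout group, it was 14.1-fold lower (adjusted p = 0.0036, edgeR). By a 95% exact binomial interval, counting error only, it was lower by at least 11.1-fold. It was the member not led by control 482, since control 486 was highest. Of its 773 exon bases, 399 are shared with Chtf18 on the other strand, so how reads there were assigned bears on its level. Chtf18 stood at 0.473 to 2.11 CPM in the controls and 0.230 to 1.59 CPM in the knockouts.

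Tas1r3 (ENSMUSG00000029072, chromosome 4, 155859268 to 155863362) encodes the shared subunit of the sweet and umami taste receptors and did not follow the other members. It stood at 0.590, 0.338 and 0.391 CPM in control mice 482, 483 and 486 and at 0.651, 0.997 and 0.920 CPM in knockout mice 423, 476 and 477. All 3 knockout libraries were above all 3 controls, on 10 to 30 reads a library. The log2 fold change was 0.94 (SE 0.45), which did not pass the test (adjusted p = 0.12, edgeR; 0.066 to 0.44 over the 14 alternatives that tested it). Tas1r3 shares 36 exon bases with Dvl1, which stood at 40.9 to 64.5 CPM in the controls and 34.3 to 48.5 CPM in the knockouts. Its receptor partners were sparse. Tas1r2, the sweet receptor subunit, had 5, 10 and 3 reads in control mice 482, 483 and 486 and none in the knockouts. Against 3 counts over the group, Tas1r2 was 3.51-fold lower. Tas1r1, the umami receptor subunit, had no control read and 5 knockout reads. Neither Tas1r2 nor Tas1r1 passed the count filter.

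The cytokine gene and its receptor differed in how much signal was left. Il25 (ENSMUSG00000040770, chromosome 14, 54932695 to 54935837), the tuft cell cytokine, had 29, 11 and 22 reads in control mice 482, 483 and 486 (0.611, 0.371 and 0.430 CPM) and none in the knockouts. It was 12.1-fold lower against 3 counts over the knockout group (adjusted p = 0.0032, edgeR). By a 95% exact binomial interval, counting error only, it was lower by at least 9.55-fold. Il17rb (ENSMUSG00000015966, chromosome 14, 29996135 to 30008896), which encodes the IL-25 receptor chain, stood at 8.94, 3.92 and 4.14 CPM in control mice 482, 483 and 486. In knockout mice 423, 476 and 477 it stood at 1.63, 1.10 and 1.38 CPM, below every control and with a clear signal in each library. Its log2 fold change was -2.05 (SE 0.41, adjusted p = 0.0052, edgeR), and 23.2% of the control level was left. Il17rb is also expressed by innate lymphoid and T cells. Of 11 genes listed for those cells, 8 were tested, 2 fell (Gata3 and Rora) and none rose by edgeR. Over all genes, 18.3% were called lower and 17.3% higher. None of the listed genes fell by DESeq2, by limma-voom, with the length and GC trend removed, without control 483 or without knockout 477. The summed level was 25.1 to 106 CPM in the controls and 44.5 to 55.7 CPM in the knockouts. Their part in the Il17rb values was not tested.

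In all, 9 of the 10 members were called lower and none higher, beside the 18.3% and 17.3% of all genes. No member was called higher by DESeq2 or limma-voom either, and at an unadjusted p under 0.05 edgeR gave the same 9. The libraries of the groups did not overlap in those 9, with the controls higher, as in 26.4% of all genes tested. All 10 members passed the filter on low counts, several of them through the controls alone, so these counts describe the set and give no support of their own. The median log2 fold change was -5.30 (-4.59 with Gng13 and Il25 at their bounds), against -0.06 for all genes. Earlier results of these data had already shown tuft markers lower in the knockouts. In bulk tissue, fewer tuft cells and less RNA per tuft cell cannot be told apart.

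**Figure D2:**
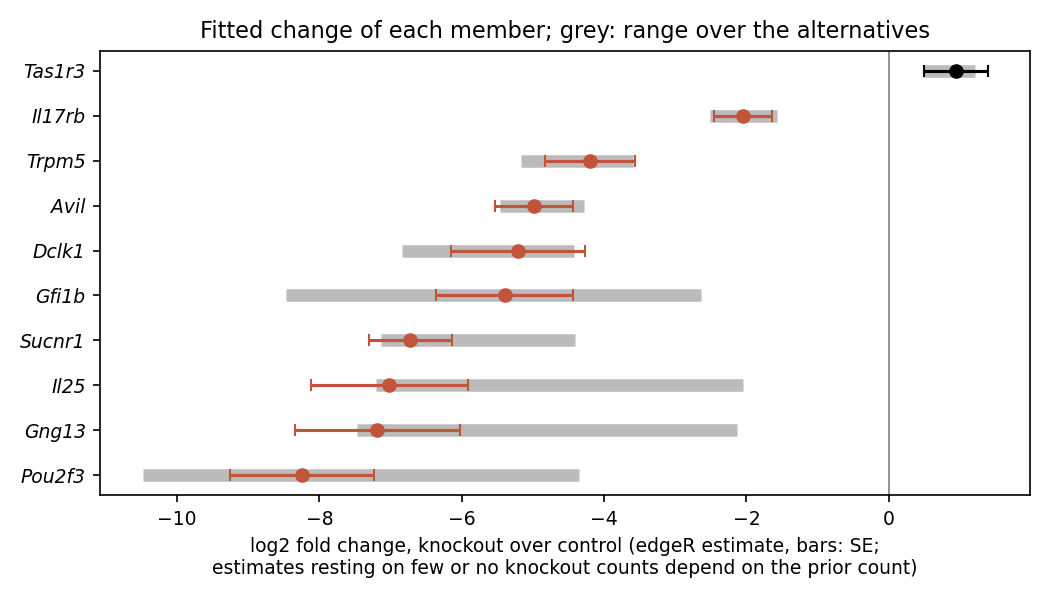
edgeR log2 fold change of each of the 10 genes (points, bars are SE; red called lower, black not called) and, in grey, the lowest and highest estimate over the alternative settings. The estimate of Il17rb is -2.05 and that of Tas1r3 0.94, whereas the other 8 lie at -4.20 or below. Estimates for genes with few or no knockout reads depend on the prior count. The upper grey ends of Pou2f3, Gfi1b, Sucnr1, Gng13 and Il25 come from limma-trend on the variance-stabilised values, a scale other than log2 CPM.

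By reads pooled over each group, the level left in the knockouts was 0.247% for Pou2f3, 0.858% for Sucnr1, 2.01% for Gfi1b, 2.70% for Dclk1, 3.03% for Avil, 5.41% for Trpm5 and 23.2% for Il17rb. The counting interval of Il17rb (18.6% to 28.5%) lies above those of the other 6 and above the upper limits of Gng13 (8.98%) and Il25 (10.5%), which had no knockout read. Intervals cover counting error only, and single mice moved the values past them: knockout 423 held 41 of the 51 knockout reads of Dclk1, and without it Dclk1 was at 0.858%, Avil at 2.14% and Trpm5 at 2.69%. No order is therefore read among the members below Il17rb.

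Library 423 was the highest knockout for all 7 members that were called lower and had any knockout read. No read was found for 2 members in knockout 423, 4 in knockout 476 and 6 in knockout 477, which was also the shallowest library. Summed over the 10 members, the level was 172, 58.4 and 69.6 CPM in control mice 482, 483 and 486 and 8.83, 4.09 and 3.51 CPM in knockout mice 423, 476 and 477. Control 482 was the highest control for 9 of the 10 genes, and control 483 the lowest for 8. Some marker lists of other cells had this order too, such as the Paneth list (summed 5139, 2168 and 3264 CPM in 482, 483 and 486). Others did not, such as the goblet list (7636, 9334 and 11302 CPM). The highest control was 3.35 times the lowest for Dclk1 but 1.65 times for Il25 and 1.85 times for Sucnr1.

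Per kilobase of exon, the scale on which genes can be set side by side, Avil and Trpm5 led in the controls at 5.90 ± 3.86 and 5.71 ± 3.47 CPM per kb (SD, n = 3). Sucnr1 followed at 3.60 ± 1.07, then Pou2f3 at 1.66 ± 1.41, Dclk1 at 1.57 ± 1.17 and Il17rb at 1.53 ± 0.77 CPM per kb. Gfi1b (0.687 ± 0.484), Gng13 (0.679 ± 0.272) and Il25 (0.442 ± 0.118) were lower, and Tas1r3 was lowest at 0.125 ± 0.038 CPM per kb. Each gene's control range overlapped that of its neighbour in this order except for Il25 and Tas1r3. In the knockouts Il17rb was at 0.296 to 0.439 CPM per kb, Trpm5 at 0.126 to 0.611, Tas1r3 at 0.185 to 0.283, Avil at 0.118 to 0.288 and Pou2f3 at or under 0.0117. The Trpm5 range overlaps those of Il17rb, Tas1r3 and Avil, and the Tas1r3 and Avil ranges overlap each other. Every knockout library of Il17rb was above those of Tas1r3 and Avil.

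Other regulators of the tuft programme moved with Pou2f3 and Gfi1b. Of 11 tuft transcription factor and cofactor genes, the members included, 8 fell, none rose and 3 were not called (median log2 fold change -3.72), beside 18.3% of all genes called lower. Without the members, 6 of 9 fell. With the stricter filter of 1 CPM in 3 libraries, 6 were tested and 4 fell. The homeobox genes Hmx2 and Hmx3 stood at 0.473 to 2.28 and 0.304 to 1.29 CPM in the controls. Hmx2 had no knockout read (31.4-fold lower against the 3-count floor). Hmx3 had 4 knockout reads, all in knockout 423 (log2 fold change -3.65, called in 10 of the 12 alternatives that tested it). The POU2F3 cofactor genes 1810046K07Rik (Pou2af2) and Colca2 (Pou2af3) fell by 3.97 and 3.72 on the log2 scale. Spib, an ETS factor gene also expressed by B cells and M cells, fell by 5.05 and Runx1 fell by 3.13. The crypt and secretory lineage factors did not pass the test: Atoh1, needed for secretory cells, stood at 6.13 to 9.76 CPM in the controls and 3.80 to 8.97 CPM in the knockouts, Sox9 had a log2 fold change of -0.11 (SE 0.49), and Ascl2 one of -1.18 (SE 0.89).

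Along the taste cascade most genes with enough reads fell. Of 18 genes listed, 11 were tested, 8 fell, none rose and 3 were not called, beside 18.3% of all genes called lower. The median log2 fold change was -4.25, or -4.20 with Gng13 set at the 3-count floor. The tested genes include 4 members, Trpm5, Sucnr1, Gng13 and Tas1r3, and without them 5 of 7 fell. Gnat3, the G protein alpha subunit gustducin, had 223 control reads and 1 knockout read, 131-fold lower (95% exact binomial interval 23.2 to 5180). Plcb2, the phospholipase C of taste cells, fell by 4.25 on the log2 scale (SE 0.61), and the inositol trisphosphate receptor genes Itpr2 and Itpr3 fell by 4.27 (SE 0.42) and 1.81 (SE 0.27). Ffar3, a short-chain fatty acid receptor, fell by 5.09 (SE 0.81). Gnb1, a G protein beta subunit found in most cells, stood at 780 to 970 CPM in the controls and 785 to 946 CPM in the knockouts, and Trpm4, the close relative of Trpm5, was not called (log2 fold change -0.29, SE 0.20, adjusted p = 0.27; called lower in 1 of 15 alternatives).

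In the type 2 cytokine circuit fewer genes were called. Of 19 genes, 10 were tested, 4 fell and 1 rose (median log2 fold change -0.48), beside 18.3% of all genes called lower and 17.3% higher. Without the members Il25 and Il17rb, 2 of 8 fell and 1 rose. Besides Il25 and Il17rb, Gata3 and Rora, which encode factors of innate lymphoid and T cells, fell by 1.76 and 1.82 on the log2 scale from at most 0.709 CPM, and were called in 4 and 5 of 14 alternatives. When 1 library was left out, 2 to 4 genes fell; 2 fell by DESeq2, by limma-voom or with the length and GC trend removed, and 1 of 7 tested with the stricter filter. Il17ra, the second chain of the IL-25 receptor, stood at 15.0 to 22.1 CPM in the controls and 8.90 to 13.4 CPM in the knockouts (log2 fold change -0.67, adjusted p = 0.055; called lower in 3 of 15 alternatives). Il4ra (-0.28), Il13ra1 (0.67) and Stat6 (-0.06), which carry the IL-4 and IL-13 signal in epithelium, and Il33 (-0.10) were not called either. Areg, an EGF-family ligand gene, was higher, at 143 to 190 CPM in the knockouts against 4.70 to 7.29 CPM in the controls (log2 fold change 4.77, SE 0.26). The type 2 cytokine genes themselves were at or near 0: Il5 and Il9 had no read, Il4 had 1 knockout read and Il13 had 2 control reads. Il17re, Tslp and Il1rl1 had 47, 27 and 100 control reads and 4, 1 and 24 knockout reads and did not pass the filter. Of the Il1rl1 control reads, 74 were in control 486, and the groups overlapped for this gene.

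**Figure D3:**
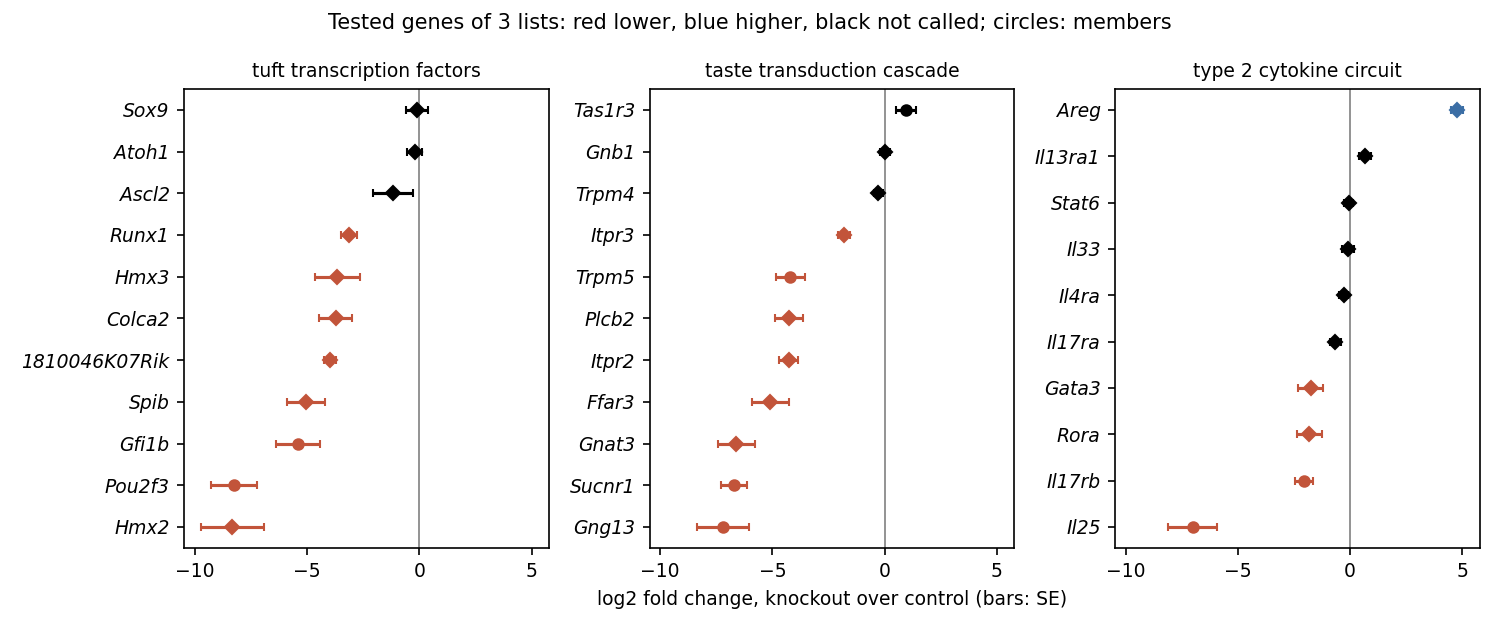
edgeR log2 fold change (bars are SE) of the tested genes of the transcription factor, taste cascade and type 2 cytokine lists; red is called lower, blue called higher, black not called, circles are members of the set and diamonds other genes. The lower calls run through the first 2 lists down to Itpr3 at -1.81, and the cytokine list holds 4 of them and the rise of Areg at 4.77.

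Further tuft cell genes were lower as well, where 18.3% of all genes were called lower and 17.3% higher. Of 28 structural and signalling genes, the members included, 22 fell and none rose (median log2 fold change -3.32); without the members, 20 of 26 fell. Krt18, a keratin gene used as a tuft cell marker, stood at 114 to 228 CPM in the controls and 283 to 335 CPM in the knockouts (log2 fold change 0.78, adjusted p = 0.054). It was the gene called higher in 8 of 15 alternatives. Tubb5 had a log2 fold change of 0.60 (adjusted p = 0.14). Besides Avil, the smallest adjusted p values belonged to Plcg2 (log2 fold change -3.06), a phospholipase, Lrmp (-3.81), Kctd12 (-4.22), Matk (-3.83) and the kinase gene Bmx (-6.00). Of 8 genes of acetylcholine and eicosanoid output, 6 were tested and 5 fell. Chat, the acetylcholine-making enzyme, had 153 control reads and no knockout read (29.9-fold lower against the 3-count floor). The leukotriene synthesis genes Alox5 and Alox5ap had log2 fold changes of -5.56 and -4.13. Those of the prostaglandin enzyme genes Hpgds and Ptgs1 were -2.75 and -3.27, and Ltc4s, the leukotriene C4 synthase gene, had a log2 fold change of -0.05 (SE 0.28).

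The 10 named genes nearest in pattern to the mean of the members (unnamed gene models left out), by root mean square distance of centred log2 CPM over the 6 libraries, were Zfp503, Lrmp, Lama3, Map1a, Kctd12, Psd3, Apcdd1, Ccbe1, Vav1 and Nav2. Their distances ran from 0.176 for Zfp503 to 0.338 for Nav2, beside 0.216 for Gfi1b and 2.41 for Tas1r3 among the members. Lama3, a laminin chain gene, stood at 180, 82.1 and 99.5 CPM in control mice 482, 483 and 486. In knockout mice 423, 476 and 477 it stood at 8.25, 8.78 and 5.29 CPM. The order of the nearest genes depends on the prior count: with 0.5 in place of 2, only 2 of these 10 genes were among the nearest 10.

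Markers of the other cells that scraped epithelium could hold are given beside these results. Their calls stand beside the 18.3% of all genes called lower and the 17.3% called higher. All 4 tested genes of the mast cell, basophil and eosinophil list fell, of 8 listed; its summed level was 23.2 to 51.5 CPM in the controls and 1.76 to 3.15 CPM in the knockouts. Siglecf (log2 fold change -5.30), also a tuft cell gene, and the mast cell protease Mcpt1 (-5.71) had the smallest adjusted p. Cpa3, Fcer1a and Ms4a2, which define mast cells and basophils, had 25, 28 and 12 control reads and none in the knockouts. The part of these cells in the members' values was not tested. Of 8 macrophage and dendritic cell genes tested, 2 fell (Itgax, -1.94; Itgam, -1.48) and 1 rose, and neither direction held a call without knockout 477. The summed level was 20.7 to 57.1 CPM in the controls and 21.5 to 26.5 CPM in the knockouts. Macrophages also express Sucnr1, and their part was not tested either.

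In the main test, enteroendocrine, goblet and enterocyte genes were called in both directions, and Paneth and stem and progenitor genes only lower. The shares over all genes tested were 18.3% lower and 17.3% higher. Of 10 enteroendocrine genes tested, 1 fell (Gip, log2 fold change -2.78) and 1 rose (Tph1, 0.84; called in 13 of 15 alternatives), and of 8 goblet genes 3 fell (among them Muc2, -1.41) and 2 rose (among them Agr2, 1.63). Of 8 Paneth genes 5 fell (among them Ang4, -6.60, and Itln1, -3.59; 3 to 6 with 1 library left out), and of 7 stem and progenitor genes 2 fell (Dll1, -1.76; Axin2, -1.95; 2 to 5). Of 8 enterocyte genes 2 fell (among them Vil1) and 2 rose (among them Fabp2, 2.20). Whether the tuft genes differ in size of change from these lists was not tested. None of the 7 mesenchyme genes (Pdgfra, -1.40; Col3a1, -0.64) and of the 3 tested B and plasma cell genes (Jchain, -1.62; Cd79b, -1.56) was called by edgeR, with 0 to 2 and 0 to 5 lower over the alternatives. Of 3 tested endothelial genes Lyve1 fell (-1.38), and Pecam1 had a log2 fold change of -1.59 (adjusted p = 0.050). No endothelial gene was called lower without control 482, control 483, knockout 476 or knockout 477.

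**Figure D4:**
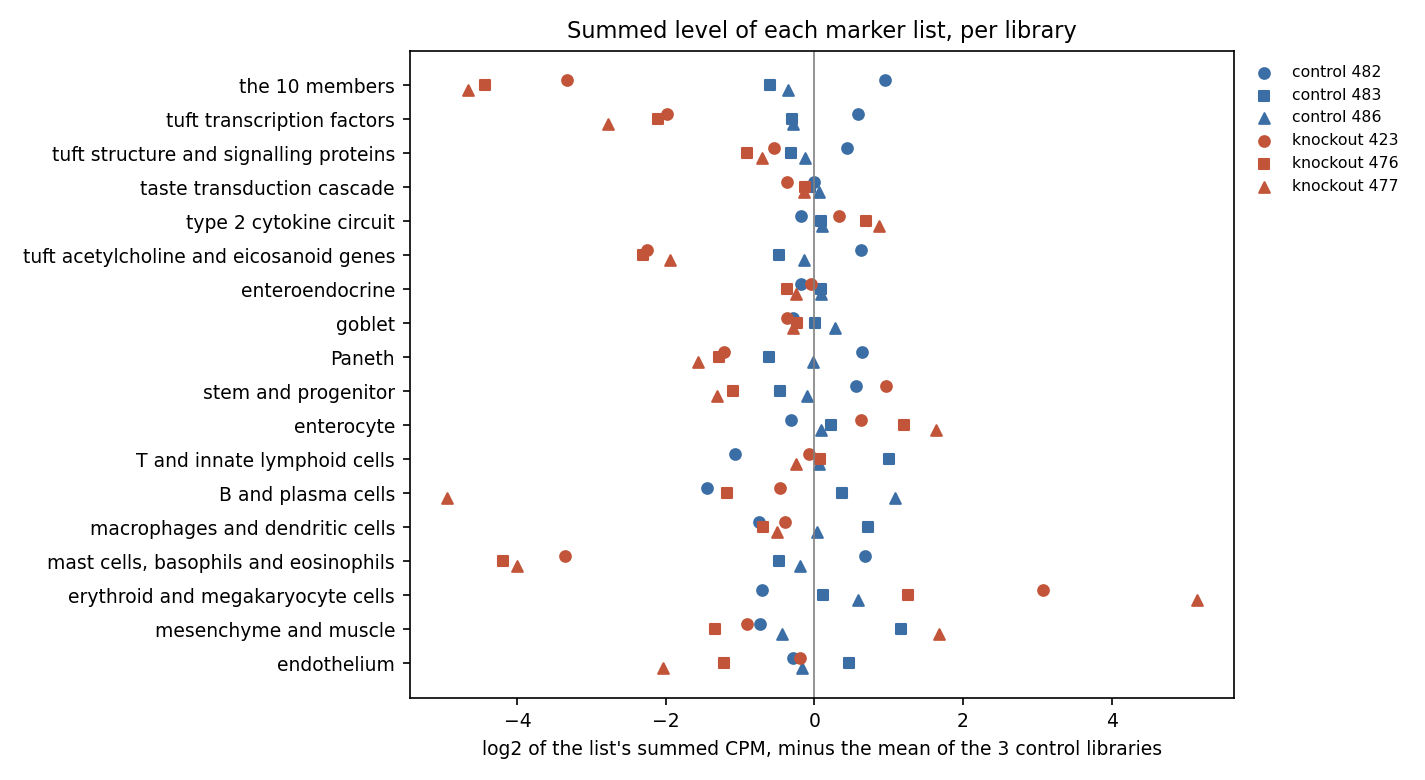
Summed CPM of the 10 members and of the marker lists in every library, as log2 difference from the mean log2 of the 3 controls (blue controls, red knockouts). The enteric neuron and glia list is not drawn. The members' sum lies at 58.4 CPM or more in the controls and at 8.83 CPM or less in the knockouts. The 3 knockouts also lie below the 3 controls in the transcription factor, structure, taste cascade, acetylcholine, Paneth and mast cell lists. They lie above the controls in the enterocyte, type 2 cytokine and erythroid lists. Sums follow each list's most abundant genes. In the type 2 cytokine list, where 4 genes fell and 1 rose, these are in the knockouts Il13ra1 (not called; 305 to 500 CPM, 185 to 287 CPM in the controls) and Areg (143 to 190 CPM). In the taste cascade list it is Gnb1 (not called), at 780 to 970 CPM in the controls.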

How the data were processed

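The count table the authors deposited holds raw whole-number counts per Ensembl gene. Per the submitters' processing notes, reads were handled with STAR 2.7.9a on mm10, fastp 0.21.0, Subread 1.6.2 (featureCounts) and DESeq2 1.23.10. For the annotation, strand setting and filters, nothing is given in the sources used here. The authors also deposited variance-stabilised log2 values, used in 1 alternative. Symbols, positions and exon lengths (union of exons) came from GENCODE M21, and promoter windows from RefSeq.

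Counts were tested in R 4.3.3 with edgeR 4.0.16 (filterByExpr, 15028 genes kept; TMM; robust quasi-likelihood test; Benjamini-Hochberg, threshold 0.05), after a check on simulated data. The SE is the log2 fold change over the square root of F. Log2 CPM used a prior count of 2. Libraries of 1 group were no duplicates: their counts differed by a chi-square of at least 65.9 per degree of freedom. Group and number came from the titles, and nothing was paired. Alternatives were 3 scalings, 2 filters, DESeq2 1.42.0, limma-voom and limma-trend (limma 3.58.1), removal of the length and GC trend, and each library left out in turn.

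The members and gene lists were chosen with earlier results of these data known. Named are all members, Ncor1, the listed transcription factor, taste and cytokine genes with at least 10 reads in some library, and, by smallest adjusted p, up to 6 genes of the other tuft lists and 2 of each further list; Elavl4, S100b, Krt18, Tubb5, Cpa3, Fcer1a, Ms4a2, Cdx2, Tas1r1 and the cytokine genes near 0 were named after their values were seen. A gene of the list entered as Gm684 is Colca2 here. One of the deleted genes is not reported here.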

Additional observations from a re-analysis of the deposited data

How the results depend on the processing

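The 9 members called lower stayed lower and past the threshold in every alternative that tested them, and Tas1r3 stayed higher and uncalled in all 14 that did. A stricter filter (at least 1 CPM in 3 libraries) removes Gfi1b, Gng13, Il25 and Tas1r3 from the test, so 6 members were called there, and Gng13 was not tested without control 482 or control 486, where 8 were called. The cytokine list was the least stable of the tuft lists, with 1 to 6 genes lower over the alternatives. Over the whole table, library-size scaling gave 4554 genes lower and 1133 higher, and leaving out 1 library gave 1748 to 2982 lower and 1510 to 2958 higher. Of the 10 genes nearest in pattern, 2 were shared with a prior count of 0.5. The level left in the knockouts moved outside its counting interval in 15 of 90 values (each member under each setting), the lowest for Dclk1 being 0.858% without knockout 423 and the highest for Il17rb 33.3% without control 482. No paired analysis was possible because the groups share no animal number. Gng13, Il25 and Tas1r3, with at most 37 reads in a library, are limited by depth.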
